A study of Mus musculus with 4 samples.

Results

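Myom3, Moxd1, Tmeff2, Vipr2 and Ifitm7 are 5 mouse genes with no named part in drug metabolism. By 1 probe each, their background-subtracted liver signal differed widely between mice without the Cyp3a gene cluster and wild type mice. These genes are 5 of 21153 named by a probe on the array. The array carries 8 probes for them, 1 each for Myom3, Moxd1 and Ifitm7, 2 for Tmeff2 and 3 for Vipr2. The genes were chosen by the measured difference between these genotypes and, for several, by crossing the background limit, so the values below describe them and no test of that difference is given. Each array was hybridised with Cy3-labelled cRNA from liver total RNA, with 2 livers from Cyp3a-/- mice, the knockout of the cluster, set against 2 from wild type mice. The labels name the tissue and the genotype. The sources used here give no sex, age, strain, diet or extent of the deletion, and say that the replicates came from separate animals and experiments.

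The genes do unrelated work. Myom3 encodes myomesin 3, which ties thick filaments together in the M-band of striated muscle. Moxd1 encodes a relative of dopamine beta-hydroxylase that sits in the endoplasmic reticulum and whose substrate is not settled. Tmeff2 encodes a transmembrane protein with follistatin-like and EGF-like domains, best known from brain and prostate. Vipr2 encodes a receptor for the peptides VIP and PACAP that raises cyclic AMP, known above all from the circadian centre of the brain, smooth muscle and lymphocytes. Ifitm7 belongs to the interferon-induced transmembrane proteins, small membrane proteins of which some block the entry of viruses into cells. In the annotation Myom3 lies on chromosome 4, Moxd1 on chromosome 10, Tmeff2 on chromosome 1, Vipr2 on chromosome 12 and Ifitm7 on chromosome 16.

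On each array 54.4% to 56.4% of the 39429 probes passed the scanner's mark for a signal well above background, and 0 spots were saturated. The Cyp3a-/- arrays came from 2 slides and the wild type arrays shared a further one, so slide and genotype cannot be told apart. The targeted cluster matched the labels, with Cyp3a11 at a processed intensity of 2.48 and 2.53 in the Cyp3a-/- livers, against 76423 and 95872 in the wild type livers. All 6 hepatocyte markers were well above background on every array. With 2 arrays for a genotype, their number sets the precision. Only summed tissue was measured, so fewer cells that hold a transcript and less transcript per cell cannot be told apart.

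The promoters of the 3 genes that were higher in Cyp3a-/- liver are shown because these genes differed in the same direction. They are taken from RefSeq (GRCm38.p6), run from 250 bases before the gene's start to 50 bases after it, and are written on the strand of the gene, with matches to the searched motifs in capitals. All 5 genes had 1 promoter in the table. Those printed are at chr4:135759465-135759764 for Myom3, chr10:24223267-24223566 for Moxd1 and chr1:50927273-50927572 for Tmeff2, all on the plus strand.
Myom3: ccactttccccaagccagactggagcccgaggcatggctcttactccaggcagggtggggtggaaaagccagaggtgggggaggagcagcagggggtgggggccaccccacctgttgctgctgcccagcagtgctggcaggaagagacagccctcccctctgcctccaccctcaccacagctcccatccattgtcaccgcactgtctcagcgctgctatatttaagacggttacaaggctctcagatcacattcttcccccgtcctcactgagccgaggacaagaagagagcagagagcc
Moxd1: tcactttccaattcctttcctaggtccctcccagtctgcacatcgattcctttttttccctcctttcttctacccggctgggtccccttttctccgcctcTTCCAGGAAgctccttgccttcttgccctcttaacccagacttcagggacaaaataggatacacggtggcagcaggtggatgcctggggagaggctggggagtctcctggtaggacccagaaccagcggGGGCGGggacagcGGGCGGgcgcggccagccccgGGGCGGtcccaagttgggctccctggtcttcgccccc
Tmeff2: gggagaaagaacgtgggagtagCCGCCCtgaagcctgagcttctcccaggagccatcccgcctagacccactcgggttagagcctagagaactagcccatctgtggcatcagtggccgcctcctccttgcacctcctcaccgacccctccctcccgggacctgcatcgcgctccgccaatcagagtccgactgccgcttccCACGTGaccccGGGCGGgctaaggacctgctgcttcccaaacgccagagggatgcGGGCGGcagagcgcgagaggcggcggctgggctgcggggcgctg
The search covered both strands for the TATA box TATAAA, the STAT5 site TTCNNNGAA, the nuclear receptor motif AGGTCA, the repeat bound by the xenobiotic receptors CAR and PXR (AGTTCA, any 4 bases, AGTTCA), the cyclic AMP response element TGACGTCA, the clock E-box CACGTG, the interferon response core (GAAA, any 2 bases, GAAA) and the GC box GGGCGG. Of 32851 mouse promoters of this length, 13.6% held the TATA box, 8.3% the STAT5 site, 16.3% AGGTCA, 0.0122% the CAR and PXR repeat, 1.79% the cyclic AMP element, 7.15% the E-box, 3.44% the interferon core and 35.7% the GC box. The Myom3 window held 0 matches. The Moxd1 window held 1 STAT5 site beginning 150 bases before the start and 3 GC boxes, and the Tmeff2 window 1 E-box beginning 49 bases before the start and 3 GC boxes. The windows of Vipr2 and Ifitm7 held 1 GC box each and no other searched motif. No match overlapped a match to another motif. All 5 windows were richer in G and C than the median promoter of 52.7%, with 61.3% for Myom3, 61.7% for Moxd1, 67.7% for Tmeff2, 65.3% for Vipr2 and 62.7% for Ifitm7. These are letters in a window, and no searched motif but the GC box was in more than 1 of the 5.

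Myom3 gave a clear signal in both Cyp3a-/- livers and none well above background in the wild type livers. Its processed intensity, the spot's brightness after the scanner software subtracts background, was 418 and 1192 in Cyp3a-/- 1 and 2, against 8.03 and 3.61 in wild type 1 and 2. The lowest intensity of any probe marked well above background was between 10.8 and 12.4 on these arrays, so both wild type spots lay under that limit and both Cyp3a-/- spots far over it. On the log2 scale relative to the array's 75th percentile, Myom3 averaged 1.18 ± 1.09 in Cyp3a-/- liver and -5.94 ± 0.94 in wild type liver (SD, n = 2 each). The difference of 7.13 rests on wild type values that are only bounds. Setting wild type at the limit of its arrays, Myom3 was at least 62.8-fold higher, by at least 36.8-fold from Cyp3a-/- 1 alone and at least 107-fold from Cyp3a-/- 2 alone. Without background subtraction the spot's median pixel stood at 16.5 and 33.3 times its local background in the Cyp3a-/- livers, against 3.14 and 2.37 times in the wild type livers, and on that scale Myom3 was at least 9.23-fold higher.

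Moxd1 showed the same picture. Its processed intensity was 411 and 765 in the Cyp3a-/- livers, against 3.07 and 9.24 in the wild type livers, where it was not well above background. The scanner software's own error was 3.06 for the wild type 1 spot, as large as the value itself, and 2.96 for the wild type 2 spot, which carried the weaker mark of a positive and significant signal. Moxd1 averaged 0.85 ± 0.65 in Cyp3a-/- liver and -5.96 ± 1.00 in wild type liver (log2 signal, SD, n = 2 each). It was at least 49.8-fold higher in Cyp3a-/- liver, by at least 36.2-fold from Cyp3a-/- 1 alone and at least 68.6-fold from Cyp3a-/- 2 alone, and at least 8.86-fold higher by median pixels. The wild type spots were 2.95 and 2.70 times their local background, close to the dim spots of the other genes, while the Cyp3a-/- spots were 18.7 and 28.4 times theirs.

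**Figure D1:**
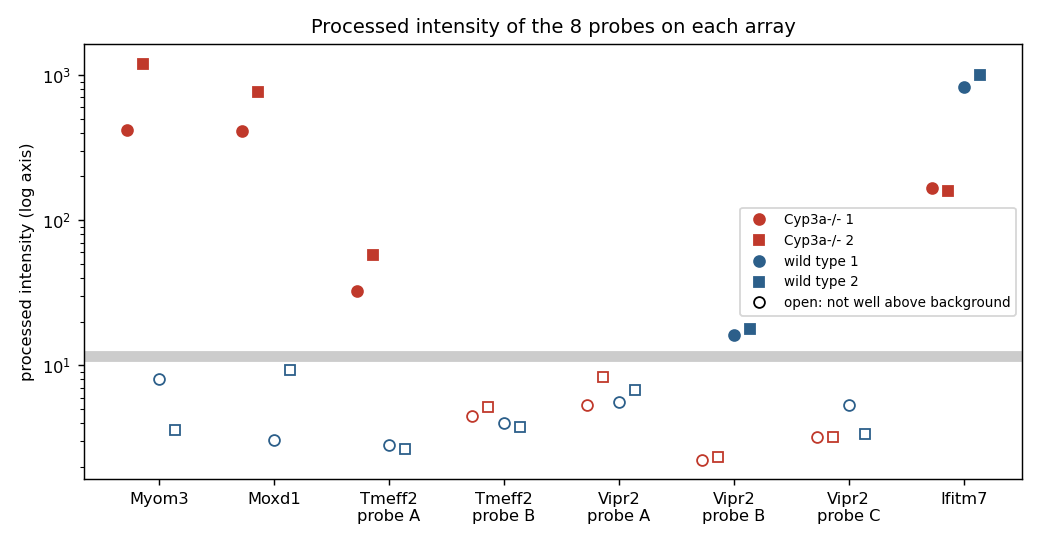
Processed intensity (log axis) of the 8 probes in the Cyp3a-/- livers (red) and the wild type livers (blue), circles for replicate 1 and squares for replicate 2, filled where the spot was well above background. The grey band spans the lowest intensity well above background on the 4 arrays (10.8 to 12.4). Myom3, Moxd1, the first probe of Tmeff2 and the second of Vipr2 have 1 genotype above the band and the other below it, while all 4 Ifitm7 spots lie above it.

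Tmeff2 was read by 2 probes that gave different pictures. The brighter one, A_52_P229052, stood at 32.4 and 57.7 in the Cyp3a-/- livers, against 2.83 and 2.65 in the wild type livers, where the scanner's error was as large as the value. It averaged -2.85 ± 0.61 in Cyp3a-/- liver and -6.92 ± 0.19 in wild type liver (log2 signal, SD, n = 2 each). With values no larger than their error, the wild type SD does not measure a spread between livers. Tmeff2 was at least 3.85-fold higher by this probe, with bounds of 2.86 and 5.18 from Cyp3a-/- 1 and 2 alone. By median pixels it was at least 1.61-fold higher. The other probe, A_52_P517029, passed that mark on 0 arrays, at 4.48 and 5.14 in the Cyp3a-/- livers, against 4.0 and 3.75 in the wild type livers. It gives no fold, since both genotypes are below the limit. The crossing of the limit thus stands on 1 of the 2 Tmeff2 probes.

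Vipr2 was lower in Cyp3a-/- liver by 1 of its 3 probes, and by little more than the limit of detection. A_51_P473205 stood at 2.25 and 2.35 in the Cyp3a-/- livers, against 16.1 and 18.0 in the wild type livers. The wild type spots are just above the limit of 12.4 on wild type 1 and 11.6 on wild type 2, and the scanner's errors for them were 3.02 and 2.99. The log2 signal of this probe averaged -7.08 ± 0.07 in Cyp3a-/- liver and -4.29 ± 0.01 in wild type liver (SD, n = 2 each). In the Cyp3a-/- livers the scanner's error was as large as the value, so the SD there does not measure a spread between livers. With the Cyp3a-/- livers at the limit Vipr2 was at least 1.43-fold lower, or at least 1.17-fold by median pixels. The other probes passed that mark on 0 of the arrays. A_51_P342773 stood at 5.32 and 8.35 in the Cyp3a-/- livers, against 5.59 and 6.75 in the wild type livers, and A_55_P2033676 at 3.23 and 3.23 in the Cyp3a-/- livers, against 5.32 and 3.35 in the wild type livers. On the log2 scale the genotypes overlapped for both of these probes. In the annotation the long noncoding RNA genes Gm46383 and Gm20658 overlap Vipr2. Neither was named by a probe.

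Ifitm7 does not cross the limit and is a lower level of a transcript that both genotypes hold. Its probe was well above background on all 4 arrays, at 167 and 158 in the Cyp3a-/- livers, against 820 and 1002 in the wild type livers. It averaged -0.94 ± 0.04 in Cyp3a-/- liver and 1.45 ± 0.08 in wild type liver (log2 signal, SD, n = 2 each), so the difference of -2.39 is 5.24-fold, and the gap between the nearest livers of the genotypes was 2.31. Its value moved least of the 5 with the background handling: by median pixels the difference was -2.01 and with normexp, a model-based background correction, -1.98. In the annotation Ifitm7 overlaps Bmerb1, whose own probe was not well above background on both arrays of a genotype. Whether the Ifitm7 probe reads any Bmerb1 transcript was not tested.

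**Figure D2:**
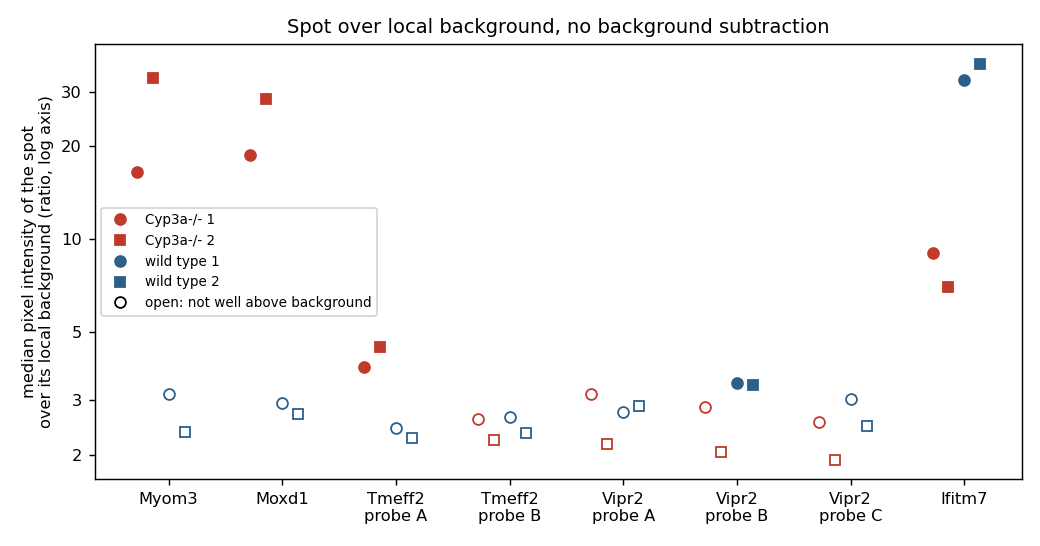
Median pixel intensity of each spot divided by the median of its local background (log axis), without background subtraction, for the same 8 probes, with Cyp3a-/- in red, wild type in blue and filled symbols for spots well above background. Spots not well above background lie between 1.93 and 3.15 times their local background, and the wild type spots of the second Vipr2 probe, at 3.42 and 3.36, are only slightly higher.

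The choice of background handling set the size of these differences, while scaling between arrays hardly touched them. With quantile normalization, median scaling or the deposited log2 table, the difference stayed between 7.05 and 7.16 for Myom3, between 6.80 and 6.84 for Moxd1, between 4.07 and 4.10 for the brighter Tmeff2 probe, between -2.79 and -2.76 for the Vipr2 probe that crosses the limit and between -2.39 and -2.36 for Ifitm7 (log2, Cyp3a-/- minus wild type). By median pixels, which keep the background in the signal, it was 3.32 for Myom3, 3.25 for Moxd1, 0.93 for Tmeff2 and -0.40 for Vipr2. Normexp, with an offset added before the log, gave values of 3.22 for Myom3, 3.14 for Moxd1, 0.92 for Tmeff2 and -0.30 for Vipr2. No alternative turned the direction of these 5 probes. Without a filter on dim probes A_51_P342773 stands for Vipr2 in its place, at 0.21.

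**Figure D3:**
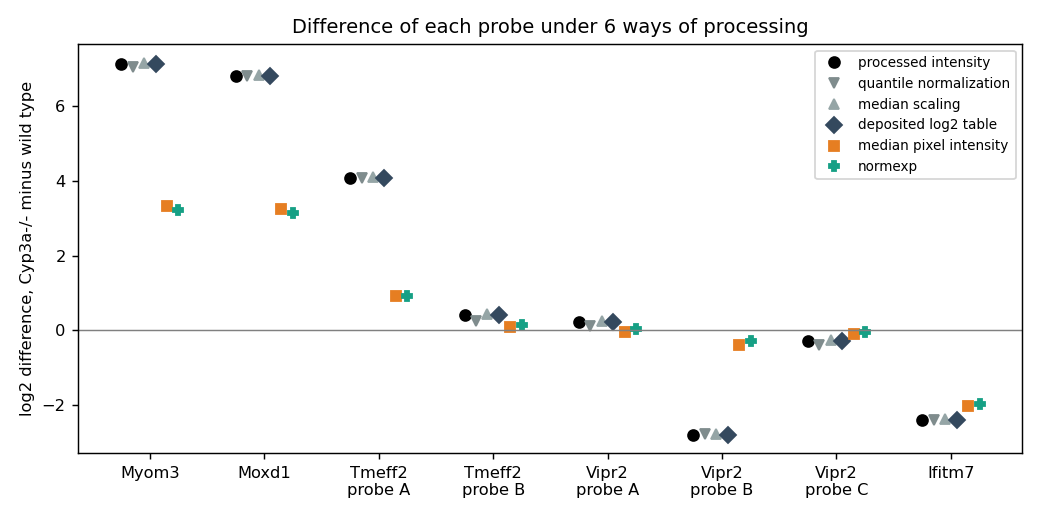
Log2 difference, Cyp3a-/- minus wild type, of the 8 probes under 6 ways of processing (symbols). Values from the processed intensity and from its rescalings coincide, at about 7 for Myom3 and Moxd1, whereas median pixel intensity and normexp give about 3 for these genes and 0.92 to 0.93 for the first Tmeff2 probe and -0.40 to -0.30 for the second Vipr2 probe.

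The Cyp3a-/- livers did not hold all of the members at the same level. Cyp3a-/- 2 was above Cyp3a-/- 1 by 2.91-fold for Myom3, 1.90-fold for Moxd1 and 1.81-fold for the brighter Tmeff2 probe after scaling. Of the 17406 features tested, 1.32% had a wider gap between the 2 Cyp3a-/- livers than Myom3, 6.84% a wider one than Moxd1 and 8.08% a wider one than Tmeff2. Ifitm7 differed little between them, with Cyp3a-/- 2 at 0.966 of Cyp3a-/- 1, and 88.2% of features had a wider gap. The 3 genes that were higher in Cyp3a-/- liver thus varied by more there than most features, each with Cyp3a-/- 2 on top.

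Crossing the background limit was uncommon and usually shallow. Of 39429 probes, 170 (0.431%) were well above background in both Cyp3a-/- livers and in neither wild type liver, and 194 (0.492%) the other way round. The first set holds 1 probe each of Myom3, Moxd1 and Tmeff2 and the second 1 probe of Vipr2, which is what the choice of these genes used. By the weaker mark of a positive and significant spot, Myom3 passed in wild type 1 and Moxd1 in wild type 2, so neither crosses by that mark. The median bound was 1.55-fold among the 170 and 1.51-fold among the 194. Myom3 and Moxd1 had the highest and the second highest bound of the 170, followed by a probe without a gene name at 38.8-fold and a probe of Xlr4a, a gene of an X-linked lymphocyte-regulated family, at 13.0-fold. Tmeff2 ranked 11 among the 170 and Vipr2 124 among the 194, where 8 of the 9 probes with a bound of at least 10-fold belonged to Cyp3a genes. Cyp3a-/- 2 was above Cyp3a-/- 1 for 76 of the 170 probes, or 44.7%, so the order seen for Myom3, Moxd1 and Tmeff2 was not that of most of them.

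A gene with several probes seldom had more than 1 that crossed. Of 45 named genes with several probes and a probe in the first set, 7 had another probe there as well, 11, Tmeff2 among them, had no other probe well above background anywhere, and 27 had another that was well above background on all 4 arrays. Of 57 such genes in the opposite set, 2 had another probe crossing, 12, Vipr2 among them, had no other probe well above background, 37 had another well above background on all arrays and 6 showed other patterns. Myom3 and Moxd1 have a single probe each, so their signal has no check from a further probe.

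The features with a gene name, the 5 genes themselves left out, whose signals over the 4 arrays lay closest to those of each member were found by the Euclidean distance of the log2 signals after centring each on its mean. Features without a name and the other members were not among these 13089 candidates, and some lie closer than the genes named here. For Myom3 and Moxd1 these were the P450 genes Cyp2c55 and Cyp2b10 and the sulfotransferase gene Sult2a7, at distances of 2.74 to 3.22 for Myom3 and 1.78 to 2.90 for Moxd1. Their Cyp3a-/- livers stood in the opposite order, with Cyp2c55 at 10053 and 7041, Sult2a7 at 5204 and 2800 and Cyp2b10 at 18849 and 13739 in Cyp3a-/- 1 and 2. Tmeff2 was closest to Xlr4b, at a distance of 0.37, with a processed intensity of 149 and 264 in Cyp3a-/- 1 and 2, against 15.2 and 16.5 in wild type 1 and 2, followed by Cyp2b10 (0.95) and the transporter gene Slco1a4 (0.98). Vipr2 was closest to 7420700N18Rik (0.43), 1700048O20Rik (0.55) and the pseudogene Serpina4-ps1 (0.63), and Ifitm7 to 2010003K11Rik (0.39), 1700048O20Rik (0.47) and Serpina4-ps1 (0.47). These distances rest on 4 arrays and describe likeness of values only, and for Myom3, Moxd1, Tmeff2 and Vipr2 they take in values below the limit, so their size and order are loose.

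The relatives and partners of the 5 genes were then compared between the genotypes with limma across all 17406 features. Of these, 48 (0.276%) passed at an adjusted p under 0.05, 31 (0.178%) higher and 17 (0.0977%) lower. A further count, 640 (3.68%), differed by at least 1 on the log2 scale. An unadjusted p under 0.05 was reached by 1745 of the 17406 features. The counts at an unadjusted p under 0.05 given below for lists and neighbours are to be read against that share. Over 9 lists, without the members themselves, 1 of 132 tested genes passed, the female-biased P450 gene Cyp2b9. The median log2 difference of all features was 0.01.

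Myom3 was higher in Cyp3a-/- liver while the muscle genes around it were mostly undetected. Its relatives Myom1 and Myom2, the myomesins of other striated fibres, stayed below that mark on all 4 arrays. Of 23 genes of the M-band, the thick filament and titin's partners, 6 could be tested and 0 passed, with 0 at an unadjusted p under 0.05 and a median difference of 0.06. The widest were Smyd1, a muscle histone methyltransferase, at 0.89 ± 0.43 (log2 difference, SE; limma adjusted p = 0.574) and the LIM-domain gene Fhl2 at 0.36 ± 0.51 (adjusted p = 0.835). Of 27 skeletal muscle genes 10 could be tested and 0 passed (1 at an unadjusted p under 0.05), with a median of -0.31, the troponin gene Tnnt1 at -0.87 ± 0.41 (adjusted p = 0.566) and the tropomyosin gene Tpm2 at -0.68 ± 0.18 (adjusted p = 0.323). Of the 12 skeletal muscle markers 4 and 4 were well above background in the Cyp3a-/- livers, against 4 and 5 in the wild type livers, and their summed signal, in units of the array's 75th percentile, was 1.03 and 0.846 in the Cyp3a-/- livers, against 1.12 and 0.996 in the wild type livers. Of these markers Mylpf, Tnni2, Atp2a1 and Pvalb were well above background on all 4 arrays. Pvalb was the brightest, at 194 and 121 in the Cyp3a-/- livers, against 214 and 200 in the wild type livers. Ckm, Actn3, Myl1, Tnnt3, Myh1, Myh4 and Casq1 were below that mark on all 4 arrays, and the actin gene Acta1 was above it in wild type 2 alone. The ranges of the genotypes overlapped for this sum, and its part in the Myom3 values was not tested.

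Moxd1 has close relatives that were not well above background. Dbh, dopamine beta-hydroxylase itself, and Moxd2 were below the mark on all 4 arrays, and Pam, the copper enzyme that amidates peptide hormones, stood at 37.2 and 45.0 in the Cyp3a-/- livers, against 38.0 and 34.8 in the wild type livers (log2 difference 0.26 ± 0.21, SE; limma adjusted p = 0.710). Of 14 genes of copper monooxygenases and catecholamine metabolism, 11 could be tested and 0 passed (1 at an unadjusted p under 0.05), with a median of 0.07. The widest were Pnmt, which makes adrenaline, at 0.97 ± 0.30 (adjusted p = 0.392) and the amine oxidase gene Maoa at 0.40 ± 0.30 (adjusted p = 0.688). Among genes with male-biased expression in mouse liver, 0 of 16 tested passed (1 at an unadjusted p under 0.05; median 0.07), with Susd4 at 1.51 ± 0.24 (adjusted p = 0.152) and the repressor gene Bcl6 at 0.69 ± 0.57 (adjusted p = 0.716). Of the female-biased genes 1 of 7 tested rose and 0 fell (median 0.675). That was Cyp2b9, at 358 and 177 in the Cyp3a-/- livers, against 17.0 and 16.6 in the wild type livers, a difference of 4.0 ± 0.35 (adjusted p = 0.023). Next came the peroxisomal transporter gene Abcd2 at 1.48 ± 0.59 (adjusted p = 0.50). Cyp2b9 and Abcd2 were well above background in both Cyp3a-/- livers but in only 1 wild type liver. They were thus tested only through the genotype where they are bright. With probes required to be well above background on all 4 arrays, Cyp2b9 was not tested. Cyp2b9 missed the threshold without wild type 1 (adjusted p = 0.249), without wild type 2 (0.367), by median pixels (0.0607), with normexp (0.0742), with no filter on dim probes (0.135) and with slide as a block (0.0586), with adjusted p-values of 1.56e-33 to 0.367 over its alternatives. Of 4 Y-linked genes Ddx3y and Eif2s3y were well above background on all 4 arrays, Uty in both Cyp3a-/- livers and 1 wild type liver, and Kdm5d on 0 arrays, as was Xist, the RNA of the inactive X chromosome.

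Tmeff2 was set beside its relatives and partners. Tmeff1, its closest relative, was below the mark on all 4 arrays. Of 27 follistatin-domain genes, ligands and receptors, 20 could be tested and 0 passed, with 5 at an unadjusted p under 0.05 and a median of -0.08. Spock2, a matrix proteoglycan with a follistatin-like domain, also crossed the limit, at 14.2 and 28.7 in the Cyp3a-/- livers, against 11.2 and 4.49 in the wild type livers, which gives at least 1.79-fold (limma adjusted p = 0.461). Follistatin itself (Fst), which binds activins, stood at 144 and 114 in the Cyp3a-/- livers, against 315 and 361 in the wild type livers, a difference of -1.30 ± 0.19 (adjusted p = 0.130). The genotypes did not overlap for either gene, as for 22.5% of all features on the higher side and 20.2% on the lower side.

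Vipr2 was set beside its ligands and receptors. The peptide genes Vip and Adcyap1 and the PACAP receptor gene Adcyap1r1 were below the mark on all 4 arrays. Vipr1, the other VIP receptor, was bright, at 2458 and 2955 in the Cyp3a-/- livers, against 3307 and 3080 in the wild type livers (log2 difference -0.15 ± 0.21, SE; limma adjusted p = 0.833). Of 34 genes of class B receptors and cyclic AMP signalling, 26 could be tested and 0 passed (0 at an unadjusted p under 0.05), with a median of -0.02, the incretin receptor gene Glp1r at -0.90 ± 0.56 (adjusted p = 0.637) and the secretin receptor gene Sctr at 0.60 ± 0.29 (adjusted p = 0.579). Sums of markers of cells in which Vipr2 is known were then set beside it. The summed signal of 6 smooth muscle markers was 2.73 and 2.94 in the Cyp3a-/- livers, against 2.20 and 2.31 in the wild type livers, that of 8 nerve markers 9.98 and 8.53 in the Cyp3a-/- livers, against 13.0 and 8.21 in the wild type livers. That of 6 lymphocyte markers was 15.3 and 12.6 in the Cyp3a-/- livers, against 14.4 and 8.70 in the wild type livers. The smooth muscle sums were higher in Cyp3a-/- liver and the other sums overlapped. Most of the smooth muscle sum is Tagln (limma adjusted p = 0.493). It stood at 704 and 719 in the Cyp3a-/- livers, against 538 and 582 in the wild type livers. The other markers went both ways on the log2 scale. Cnn1 differed by 0.38 and Actg2 by 0.26, while Acta2 differed by -0.10, Myh11 by -0.47 and Des by -0.10. The part of these cells in the Vipr2 values was not tested.

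Ifitm7's relatives gave small differences. Ifitm3, which restricts influenza virus, stood at 9747 and 12620 in the Cyp3a-/- livers, against 12043 and 11925 in the wild type livers (log2 difference -0.02 ± 0.22, SE; limma adjusted p = 0.985). Ifitm2 stood at 0.03 ± 0.17 (adjusted p = 0.960), Ifitm1 at -0.30 ± 0.17 (adjusted p = 0.616) and Ifitm6 at -0.23 ± 0.31 (adjusted p = 0.829), while Ifitm5 and Ifitm10 were below the mark on all 4 arrays. Of the Ifitm and related CD225-domain genes 6 could be tested and 0 passed (0 at an unadjusted p under 0.05; median -0.14). Of 30 tested interferon response genes 0 passed (3 at an unadjusted p under 0.05; median 0.055), with the antiviral synthetase gene Oas2 at -0.69 ± 0.18 (adjusted p = 0.323) and Ifit1 at 0.54 ± 0.22 (adjusted p = 0.511). The difference between Ifitm7 and these relatives was not tested.

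**Figure D4:**
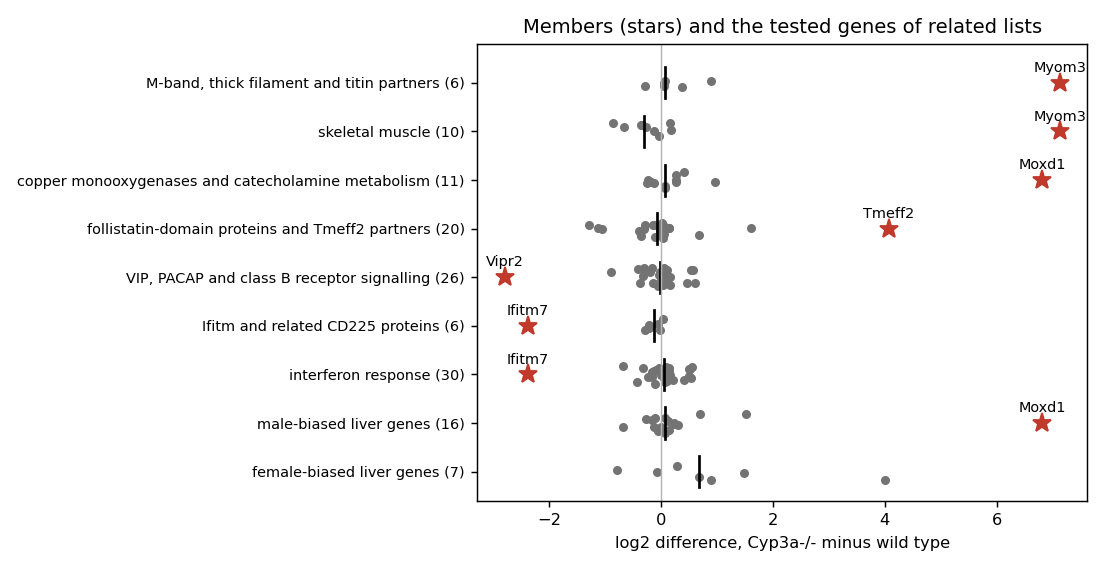
Log2 difference, Cyp3a-/- minus wild type, of the tested genes of 9 related lists (grey points, number tested in brackets), with the list median as a black bar and the member that goes with the list as a red star. List medians lie between -0.31 and 0.68, and each member lies outside the range of the lists beside it, as its choice implies.

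The genes beside the members in the annotation gave 0 calls. Of the 5 nearest measured genes on each side, 50 in all, 0 passed limma's threshold (4 at an unadjusted p under 0.05). The widest difference near Myom3 was that of the cannabinoid receptor gene Cnr2, at 0.64 ± 0.56 (log2 difference, SE; limma adjusted p = 0.731), and near Tmeff2 that of the zinc transporter gene Slc39a10, at 0.73 ± 0.43 (adjusted p = 0.625). Near Moxd1 it was Vnn1, a pantetheinase gene, at -1.66 ± 0.35 (adjusted p = 0.254), and the gene next to Moxd1, Ccn2, which encodes a matrix-associated growth factor and is named here after its value was seen, stood at 1.34 ± 0.22 (adjusted p = 0.159). Near Vipr2 it was the condensin gene Ncapg2 at -1.21 ± 0.37 (adjusted p = 0.389), which stood at 14.3 and 10.4 in the Cyp3a-/- livers, against 19.9 and 45.2 in the wild type livers. Near Ifitm7 it was Mpv17l at 0.55 ± 0.33 (adjusted p = 0.630). The medians of the neighbours were 0.16 for Myom3, 0.205 for Moxd1, 0.13 for Tmeff2, -0.01 for Vipr2 and 0.06 for Ifitm7.

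**Figure D5:**
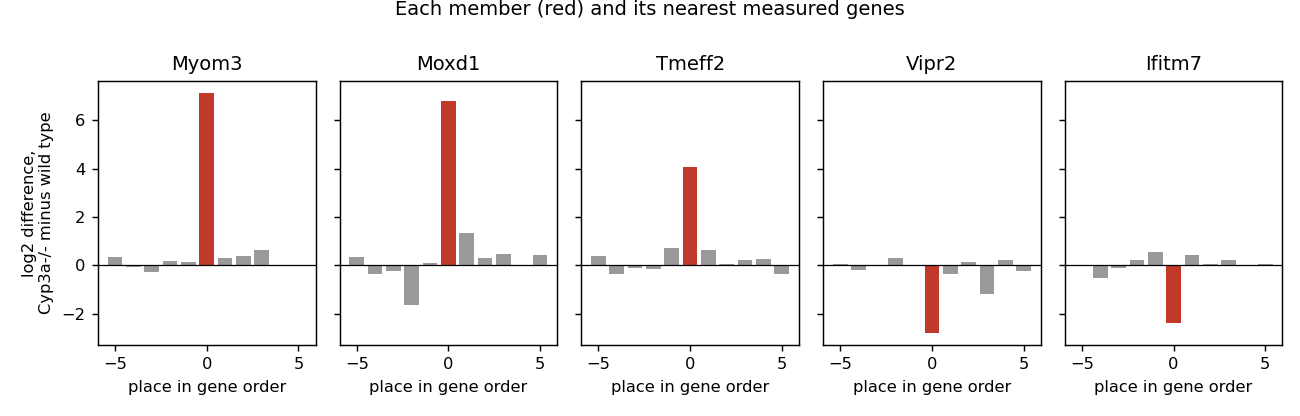
Log2 difference, Cyp3a-/- minus wild type, of each member (red bar, place 0) and of the 5 nearest measured genes on each side in gene order (grey bars). None of the grey bars passed limma's threshold, and the widest is Vnn1 beside Moxd1 at -1.66.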

How the data were processed

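Liver RNA of 2 Cyp3a-/- and 2 wild type mice was measured on 1-colour Agilent arrays. The authors deposited scanner output with intensity values from Agilent Feature Extraction 11.5.1.1, as the submitters' processing notes name it, on a design of the mm9 build per the file headers. Processed intensity is background-subtracted and detrended within the array, per the file headers; flags of 0 or 1 and other columns are as deposited. The deposited log2 table has no stated scale; it matched log2 processed intensity minus the 75th percentile, centred on each of its 39417 probes' median (correlation 1.0 for each array, tolerance 0.002 for a median of 0). Its column medians were -0.02 and 0.02 for the Cyp3a-/- arrays and 0.06 and -0.07 for the wild type arrays. Every per-sample column named a sample of the series.

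Control spots and 113 to 148 marked spots per array were left out, spots of a probe averaged, and log2 values scaled to the array's 75th percentile. Accessions were matched to RefSeq genes (GRCm38.p6) for names and gene order, naming 28025 probes and leaving 11404 unnamed. Probes well above background on both arrays of a genotype were kept (21508), and a gene was represented by its brightest kept probe (17406 features, 13094 named). All 5 members passed, by 5 of their 8 probes, 4 of them only through the genotype where they are bright. An "at least" fold sets the bright genotype's mean against the other's mean after each array's value is raised, where lower, to the lowest value of any probe there marked well above background. Related genes were tested with limma 3.58.1 in R 4.3.3 (2-sided, Benjamini-Hochberg over all features, threshold 0.05). The same test was run on simulated arrays with variances drawn from limma's own fit, without slide effects or a background limit. That run therefore cannot show how the test behaves where slide or dim spots matter. The limma p-values given here draw on 2 residual and 3.54 prior degrees of freedom and on the spread between these 4 livers.

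The members, the lists and the tests were chosen with earlier results of these data known. Named genes are the members, the 3 nearest profiles of each, the 5 crossing genes with the largest bound in each direction, and of each list the called genes, the 2 widest and the closest relatives of the member, with the widest neighbour of each member. Y-linked genes and Xist were added after their values were seen.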

Additional observations from a re-analysis of the deposited data

How the results depend on the processing

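Of 60 recomputed log2 differences of the members, 49 moved by less than the spread between livers, 10 by more and 1 turned. Most of the 49 had little room to move. The replicate block leaves these differences as they are, and the deposited table holds the same values recentred. Leaving out 1 of 2 livers shifts a mean by less than the gap between them. Without the filter the members other than Vipr2 keep their probe. The 10 were those by median pixels (Myom3 3.32, Moxd1 3.25, Tmeff2 0.93, Vipr2 -0.40, Ifitm7 -2.01) and normexp (3.22, 3.14, 0.92, -0.30 and -1.98 in the same order), against 7.13, 6.81, 4.07, -2.79 and -2.39 as reported. Vipr2 turned, to 0.21, without a filter on dim probes, where another probe stands for it. Normexp used median pixels because no mean signal was in the files used here, and was chosen after seeing the data, as was the slide setting. The flag for a positive and significant spot in place of the stricter one put 584 probes, not 170, above background in the Cyp3a-/- livers alone, and 280, not 194, in the wild type livers alone, so the higher side became the larger one. Myom3 and Moxd1 were not among the 584. With 48 features called as reported, median scaling called 659, no filter 13, a filter on all 4 arrays 9, and slide as a block at a preset correlation of 0.5 called 21, since limma could not estimate that correlation from 4 arrays. Leaving out 1 liver gave 7 to 506 calls: 94 without Cyp3a-/- 1, 506 without Cyp3a-/- 2, 8 without wild type 1 and 7 without wild type 2. Related list genes called numbered 1 as reported, 8 with median scaling, 0 with normexp, median pixels, no filter, the filter on all arrays and the slide block, and 0 to 4 without 1 liver. With the replicate number as a replicate block 58 features were called, 43 of them among the 48, and 1 list gene. The labels do not say what the number marks, and same-numbered livers deviated at a correlation of -0.102. Crossing the numbers, chosen after seeing the data, gave 56 calls. Signal over background limits Tmeff2 and Vipr2.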

Other observations

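Among named genes represented by a probe that crossed the limit, the largest bounds after Myom3 and Moxd1 belonged to Colgalt2, a collagen galactosyltransferase gene, at least 6.17-fold higher (limma adjusted p = 0.073), Xlr4a, at least 5.82-fold higher (adjusted p = 0.115) and the chaperone gene Fkbp11, at least 3.95-fold higher (adjusted p = 0.452). Each was tested because it was bright in Cyp3a-/- liver, and its wild type spots were not well above background. These p-values thus rest in part on the spread of values near or below the limit. Xlr4a is represented here by its brightest kept probe. The bound of 13.0-fold given earlier for Xlr4a came from another probe of the gene, which also crossed the limit. On the lower side the 5 largest bounds all belonged to the targeted family: Cyp3a11 was at least 7204-fold, Cyp3a25 at least 1721-fold, Cyp3a59 at least 1435-fold, Cyp3a16 at least 1044-fold and Cyp3a57 at least 750-fold lower. Fkbp11 stood at -1.59 and -3.81 in the Cyp3a-/- livers, against -4.44 and -5.01 in the wild type livers (log2 signal), with Cyp3a-/- 1 the highest.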
